A study of Homo sapiens with 18 samples.

Results

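Translational efficiency was compared between replicatively senescent and proliferating human fibroblasts. It is the number of ribosome footprints on the coding sequence (CDS) of a gene relative to the mRNA of that gene. Members were chosen by condition: both libraries of every lysate titled young or old, which gave 12 of the 18 libraries of the series, from 6 lysates. All cells were IMR90, a line of fetal lung fibroblasts, so that the replicates stand for cultures of the line and not for donors. Whether the 6 lysates came from the same isolate of the line is not stated for these libraries. Young cells were untreated, proliferating and of low passage. The untreated old cells were of high passage and had reached replicative senescence (RS) by continuous passaging. Per the study's methods, 3 independently grown cultures of each condition were lysed with cycloheximide, an inhibitor that holds elongating ribosomes on the mRNA. Each lysate was then divided between Ribo-Seq and mRNA-Seq of poly(A)-enriched RNA. Lysates are called young 1 to 3 and old 1 to 3.

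Ribo-Seq sequences the short mRNA fragments that ribosomes shield from nuclease, so its counts follow how many ribosomes sit on a message. mRNA abundance, the rate at which ribosomes start on each message and their speed along it all set that count. Dividing by mRNA-Seq leaves the part that abundance does not account for, in which starting rate and speed are not told apart. Cells can change this part for chosen mRNA classes through elements in the 5′ UTR. Examples are the iron-responsive element (IRE) of ferritin mRNAs and the terminal oligopyrimidine (TOP) start of mRNAs for ribosomal proteins. Both assays were scaled to their own totals, so a change shared by all mRNAs was not measured, and in a culture of mixed cells fewer cells of a kind and less RNA per cell cannot be told apart.

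The libraries matched their labels in the mRNA. The summed level of 10 lung fibroblast markers (COL1A1, COL1A2, VIM and others) was between 27257 and 32296 CPM (counts scaled to the size of the library) in the 6 mRNA-Seq libraries, against 1.91 to 17 for 4 epithelial, 0.608 to 1.03 for 4 endothelial and 0.467 to 1.55 for 4 leukocyte markers, with SFTPC, CDH5 and CD3E at 0. The smooth muscle markers MYH11 and DES summed to 58.7 to 83.9 CPM. mRNA of MYH11 fell by 0.77 on the log2 scale in old cells and its translational efficiency rose by 0.72 ± 0.21 (edgeR adjusted p = 0.039). Its CDS footprint counts were partly not whole, such as 113.5 in young 2 and 298.167 in young 3. How reads shared with similar genes were placed is not known, so this call is uncertain. In old cells mRNA of CDKN1A, which codes for the cell cycle inhibitor p21, rose by 1.60 on the log2 scale, while LMNB1, HMGB1, HMGB2 and MKI67 fell by 2.84, 1.38, 2.42 and 2.30. The Ribo-Seq libraries of young 1 and old 2 stood apart: they held 54421 and 54708 CDS reads, where the other 4 held 583798 to 1718521, and 52.5% and 45.2% of their reads lay in non-coding RNA, against 4.75% to 23.9% elsewhere. Footprints of 19 genes whose mRNA was high only in the drug-treated cells of the series (ICM) summed to 1042 CPM in young 1 and 1359 CPM in old 2, and to 330 to 462 CPM in the other 4. What part these differences had in the results was not tested, and the counts over all genes are given with and without both lysates. Pearson's r of log2 footprint levels between replicates was 0.785 to 0.824 for pairs with one of these libraries and 0.963 to 0.969 for the others, against 0.991 to 0.996 between mRNA-Seq replicates.

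Fewer genes were called for translational efficiency than for mRNA between old and young cells. These counts do not measure how many genes changed, since the assays differ in depth. In mRNA-Seq, 8326 of 12813 tested genes (65%) were called changed, 32.4% up and 32.6% down, at an adjusted p under 0.05 by the quasi-likelihood test of edgeR with Benjamini-Hochberg adjustment. In Ribo-Seq, 3080 of 7461 genes (41.3%) were called, 21.7% up and 19.6% down. Translational efficiency was called changed for 208 of 7451 genes (2.79%), with 136 risen (1.83%) and 72 fallen (0.966%) in old cells. By the same edgeR test 1369 of the 7451 genes (18.4%) had an unadjusted p under 0.05, and 704 had an adjusted p under 0.15. Without young 1 and old 2, 383 of 9128 genes (4.2%) were called, 243 up (2.66%) and 140 down (1.53%), and 196 of the 208 were among them with the same direction.

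The called changes took different routes through both assays. Of the 136 genes that rose, 44 rose in mRNA and more steeply in footprints, 31 rose in footprints with no call in mRNA, and 32 fell in mRNA with no call in footprints. For 22 genes the mRNA fell and the footprints rose. Of the 72 genes that fell, 25 lost footprints with no call in mRNA, 23 fell in both, 12 gained mRNA while footprints fell, and 11 gained mRNA with no call in footprints. The ratio of footprints to mRNA, both in CPM after scaling, did not overlap between the 3 young and the 3 old lysates for 126 of the 208 genes, against 16.2% of all tested genes.

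**Figure D1:**
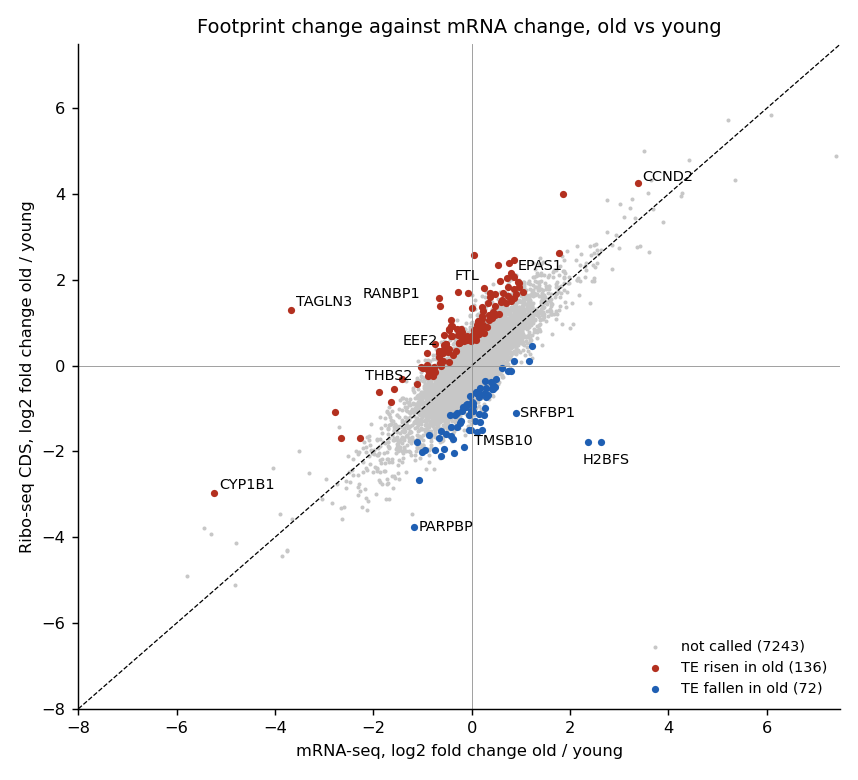
Log2 fold change of old over young in mRNA-Seq (x axis) and in Ribo-Seq CDS reads (y axis) for the 7451 genes tested, 1 point per gene. Red points mark the 136 genes whose translational efficiency rose, blue points the 72 that fell and grey points the rest; points above the dashed diagonal gained more in footprints than in mRNA, with TAGLN3, RANBP1 and FTL far above it and H2BFS and SRFBP1 far below.

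The change in translational efficiency followed the base composition of the coding sequence. Across 7421 genes with an annotated coding sequence, the log2 change correlated with GC content with Spearman's rho of 0.549, and with coding length with rho of -0.074. These genes share the 12 libraries and are not replicates. In 5 bins of equal size from low to high GC content the median change was -0.29, -0.14, 0.03, 0.19 and 0.29. Of the risen genes 55 lay in the highest bin and 3 in the lowest, while 3 of the fallen genes lay in the highest and 42 in the lowest. The median GC content was 58.7% for risen, 42.4% for fallen and 51.2% for all genes.

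Single lysates did not divide by condition in this measure. The median log2 ratio of the highest bin minus that of the lowest was -0.15 in young 1, -0.94 in young 2 and -0.84 in young 3. It was -0.18, -0.26 and -0.29 in old 1, old 2 and old 3, so that young 1 sat beside the old lysates. With a GC trend removed from each library, 109 genes (1.46%) were called, 70 up (0.939%) and 39 down (0.523%), and 75 of the 208 were among them. Of the 208, 72 (51 up, 21 down) were called both in that fit and without the shallow lysates. Whether the GC trend arose in the cells or in library preparation was not tested.

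**Figure D2:**
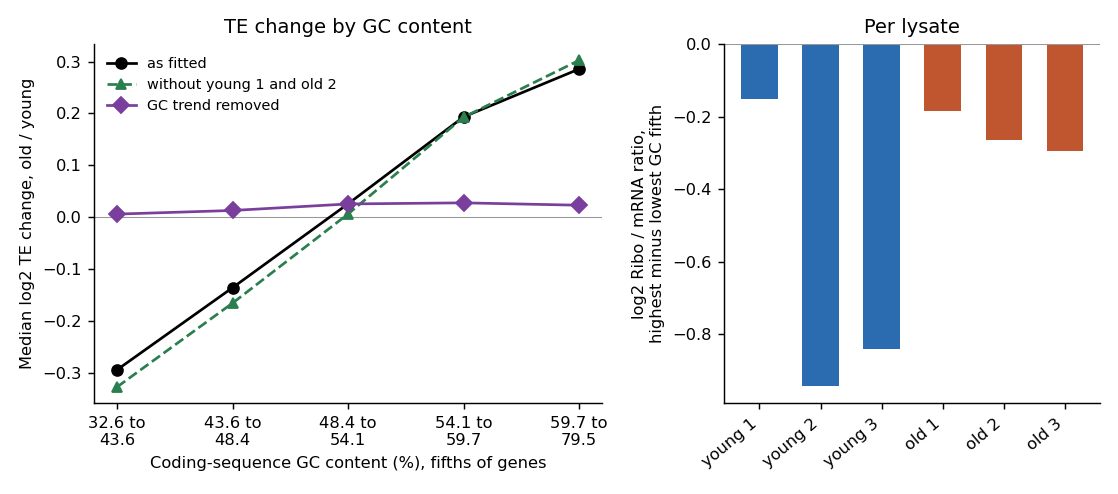
Left, median log2 change in translational efficiency (old over young) by 5 bins of coding-sequence GC content in percent, as fitted, without young 1 and old 2, and with the GC trend removed. Right, per lysate, the median log2 ratio of Ribo-Seq to mRNA-Seq in the highest minus that in the lowest GC bin; young 1 lies near -0.15, as the old lysates do, and young 2 and young 3 lie near -0.9.

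The list of mRNAs with an iron-responsive element had the highest median change of the 26 gene lists examined. An IRE is a hairpin that iron regulatory proteins bind; in the 5′ UTR this blocks initiation when iron is scarce, and in the 3′ UTR of TFRC it stabilises the message. Of 6 tested mRNAs on the list, 4 rose in translational efficiency and 0 fell, against 1.83% and 0.966% of all genes, and the median change was 0.87 on the log2 scale, against 0.01 over all genes. Among them were FTL and FTH1, the ferritin light and heavy chains that store iron, and EPAS1, the hypoxia-inducible factor HIF-2α.

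The hairpins of FTL and FTH1 are shown because they are the element that defines the list. The reference 5′ UTRs were searched on the transcript strand for a C, 5 bases, a loop and 5 bases that pair with the first 5. The loop was CAGTG followed by A, C or T, and G with T was counted as a pair. The pattern was found in 10 of 19188 annotated genes (0.0521%) and in 6 of 7421 tested genes (0.0809%). Among these were FTL, FTH1, F10 and PRPF18, all with the match in exon 1, in the 5′ UTR. EPAS1 had no match to these letters. Capitals mark the loop, sequences run 5′ to 3′, and coordinates are on GRCh37: FTL at chr19:49468593-49468619 on the plus strand and FTH1 at chr11:61735047-61735073 on the minus strand.
FTL: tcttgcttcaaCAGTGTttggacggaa
FTH1: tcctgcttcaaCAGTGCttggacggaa

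FTL had 683, 185 and 188 footprint CPM in young 1, 2 and 3, and 598, 1043 and 758 in old 1, 2 and 3, from 39, 124, 313, 891, 59 and 389 reads. Its mRNA was at 4785, 4952 and 4295 CPM in young and 3785, 3872 and 3575 in old. The ratio was 0.145, 0.0376 and 0.0439 in young and 0.158, 0.272 and 0.212 in old. The groups did not overlap, although young 1 lay just under old 1 and far above young 2 and young 3. mRNA fell by 0.29 ± 0.08 on the log2 scale (SE, n = 3 a group, adjusted p = 0.00249), footprints rose by 1.71 ± 0.21 (adjusted p = 1.09e-10), and translational efficiency rose by 1.97 ± 0.24 (adjusted p = 9.13e-09). It rose by 1.83 with the GC trend removed, by 2.12 without the shallow lysates, and by 1.61 to 2.19 with any 1 lysate left out, passing the test each time.

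FTH1 showed the same direction with a smaller size. Its ratio was 0.0816, 0.0553 and 0.0461 in young and 0.115, 0.101 and 0.105 in old, with no overlap. Its mRNA fell by 0.40 ± 0.08 on the log2 scale (edgeR adjusted p = 1.98e-04), and footprints rose by 0.69 ± 0.17 (8.68e-04). Translational efficiency rose by 1.05 ± 0.22 (adjusted p = 0.00217). The size was 1.12 with the GC trend removed and 1.14 without the shallow lysates, and the call was lost without young 2, young 3 or old 1 (0.86 to 1.04, adjusted p 0.103 to 0.203).

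EPAS1 gained both mRNA and footprints. Its mRNA was at 962, 1043 and 857 CPM in young and 1664, 1544 and 1772 in old, and its footprints at 140.1, 136 and 103 CPM in young and 414, 477 and 598 in old. The ratio, 0.155, 0.131 and 0.121 in young and 0.249, 0.315 and 0.338 in old, did not overlap. Translational efficiency rose by 1.20 ± 0.20 (adjusted p = 6.74e-05), by 1.02 with the GC trend removed, and of the 6 lysates only leaving out young 3 ended the call (1.15, adjusted p = 0.052).

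Not all IRE mRNAs passed the test. TFRC, the transferrin receptor, changed by -0.10 ± 0.16 (edgeR adjusted p = 0.785) and SLC11A2, an iron importer, by 0.34 ± 0.32 (adjusted p = 0.604). The hairpins of TFRC lie in the 3′ UTR, and neither TFRC nor SLC11A2 had a match to the pattern in the 5′ UTR.

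F10 and PRPF18, which have a 5′ UTR match, gave no call, at -0.05 and -0.45. The median log2 ratio of the 6 listed mRNAs, relative to the median of all genes, was -1.39, -1.67 and -1.75 in young 1, 2 and 3 and -1.15, -0.52 and -0.77 in old 1, 2 and 3. These lysate medians did not overlap. Among the 26 lists this held only for this list and the respiratory chain list. With 1 lysate left out, between 1 (without young 3) and 4 of the list were called, all up, and 2 were called without young 2 or old 1.

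**Figure D3:**
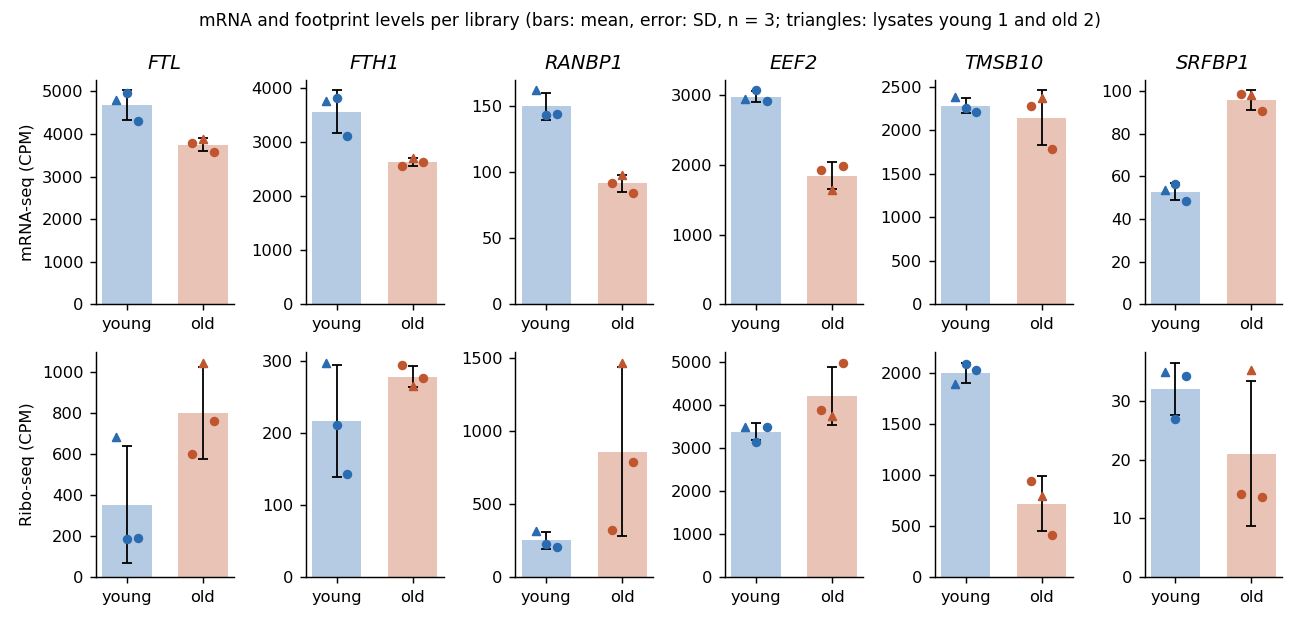
mRNA-Seq (top, CPM) and Ribo-Seq (bottom, CPM) levels of 6 genes in each library; bars are means, error bars the SD of 3 lysates, and triangles mark young 1 and old 2. FTL, FTH1, RANBP1 and EEF2 had less mRNA in every old library, TMSB10 lost footprints at overlapping mRNA levels, and SRFBP1 had more mRNA in every old library.

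RANBP1 had the smallest adjusted p among the risen genes. It binds the GTPase Ran and assists the release of nuclear transport cargo in the cytoplasm. Its mRNA was at 162, 143 and 144 CPM in young and 91.9, 97.8 and 84.6 in old, and its footprints at 315, 229 and 207 CPM in young and 319.6, 1468 and 791 in old. The ratio was 2.00, 1.60 and 1.44 in young and 3.48, 15.1 and 9.36 in old, so the groups did not overlap and the old lysates spread widely.

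Translational efficiency of RANBP1 rose by 2.16 ± 0.22 (edgeR adjusted p = 1.92e-11), by 1.89 without the shallow lysates and by 1.79 to 2.84 with any 1 lysate left out. Over all genes 2.79% were called. Among 20 tested genes of the Ran cycle and nuclear transport, RCC1, the exchange factor of Ran, was the only other one called (1.10 ± 0.32, adjusted p = 0.0438). Its ratios overlapped, it had 0 footprint reads in old 2, and with the GC trend removed its adjusted p was 0.154. RAN itself changed by -0.29 (adjusted p = 0.341), and the median of the list was -0.11.

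Targets of NRF2, the transcription factor of the oxidative stress response, had 3 risen genes of 17 tested and 0 fallen, against 1.83% and 0.966% of all genes, and a median of 0.31. The count was 3 without the shallow lysates, 2 without young 2 or old 1 and 1 without young 3. FTL and FTH1 are also on this list, so OSGIN1, an oxidative stress-induced growth inhibitor, was the only called member outside the IRE list. It rested on few footprints, 1, 9 and 17 reads in young and 36, 4 and 20 in old. Its ratio was 1.37, 0.699 and 0.554 in young and 2.11, 7.14 and 2.88 in old, with no overlap. Translational efficiency rose by 2.09 ± 0.40 (adjusted p = 4.33e-04), with mRNA falling by 0.65 ± 0.11 on the log2 scale (adjusted p = 3.80e-05), and the call was lost without young 3 (1.89, adjusted p = 0.081). OSGIN1 is among the 19 genes that mark the ICM libraries, whose footprints were raised in young 1 and old 2; without both lysates it rose by 2.00 (adjusted p = 0.00321). HMOX1, which degrades heme and is on the same marker list, changed by 0.99 (adjusted p = 0.073).

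**Figure D4:**
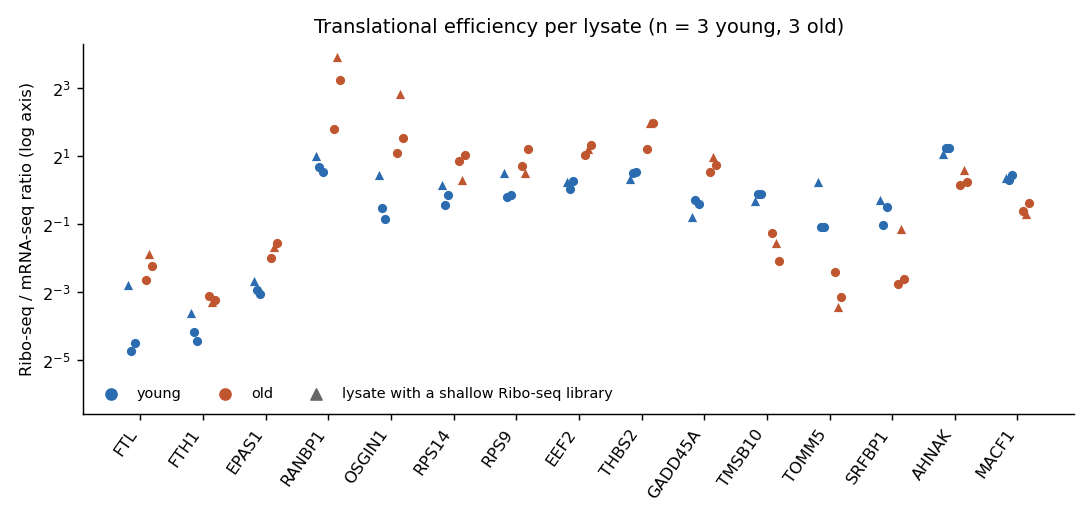
Ratio of Ribo-Seq to mRNA-Seq per lysate on a log axis for 15 called genes, with young lysates in blue, old lysates in orange and triangles for the lysates of the shallow Ribo-Seq libraries (young 1 and old 2). The genes were picked among those whose groups do not overlap, the first 10 being higher and the last 5 lower in old. Among the first 10, young 1 is the young lysate nearest the old ones for FTL, FTH1, EPAS1, RANBP1, OSGIN1, RPS14 and RPS9.

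mRNAs for the translation machinery fell in abundance while their translational efficiency rose for a subset. Of 80 cytosolic ribosomal protein genes, 76 were called down in mRNA, against 32.6% of all genes, with a median change of -0.54. In footprints 33 were called down and 3 up, against 19.6% and 21.7% of all genes, with a median of -0.34. In translational efficiency 14 rose and 0 fell, against 1.83% and 0.966% of all genes, and 65 of the 80 changes were positive, with a median of 0.26. The range was from -0.43 for RPL22 to 1.09 for RPS14. The risen genes included RPS14, RPS18, RPS9, RPS3, RPL28, RPL13A, RPL10, RPL36A, RPL4, RPL7A and RPS4X. Processed pseudogenes of near-identical sequence can take reads of ribosomal protein genes, so single members are uncertain.

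RPS14 and RPS9 code for proteins of the small ribosomal subunit. RPS14 had a ratio of 1.10, 0.738 and 0.896 in young and 1.82, 1.21 and 2.02 in old, and RPS9 of 1.40, 0.869 and 0.905 in young and 1.62, 1.42 and 2.30 in old, neither with overlap. For RPS14 mRNA fell by 0.56 ± 0.08 and footprints rose by 0.49 ± 0.16 (edgeR adjusted p = 4.36e-06 and 0.0107), and translational efficiency rose by 1.09 ± 0.17 (adjusted p = 5.47e-06). For RPS9 mRNA fell by 0.91 ± 0.07 and footprints were level at 0.01 ± 0.17 (adjusted p = 0.957), and translational efficiency rose by 0.94 ± 0.17 (adjusted p = 2.90e-04). RPS18 rose by 1.06 ± 0.20 (adjusted p = 3.13e-04) with overlapping ratios, since old 2 (0.464) lay below young 1 (0.718).

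The ribosomal protein result depended on single lysates. With the GC trend removed 12 of the 80 were called, and without the shallow lysates 28 were, all of them up. With 1 lysate left out, none were called without young 2, 1 without young 3, 1 without old 3, 3 without old 1, 12 without young 1 and 22 without old 2; the median stayed between 0.09 (without old 3) and 0.32. Relative to the median of all genes, the median log2 ratio of the list was -0.48, -0.41 and -0.28 in young 1, 2 and 3 and -0.08, -0.46 and 0.18 in old 1, 2 and 3, so that old 2 lay among the young lysates.

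Other mRNAs with a TOP start had 4 risen and 0 fallen of 17 tested, against 1.83% and 0.966% of all genes, with a median of 0.27, and all 17 fell in mRNA, where 32.6% of all genes did. This count also rested on single lysates: none were called without young 2 and 1 without young 3, old 1 or old 3, while 7 rose and 1 fell without the shallow lysates and 6 rose and 1 fell with the GC trend removed. The 4 were EEF2, EEF1G, EEF1D and RACK1. EEF2, the factor that moves the ribosome along the mRNA, had 2948, 3067 and 2918 mRNA CPM in young and 1925, 1634 and 1983 in old, with 3484, 3155 and 3504 footprint CPM in young and 3895, 3749 and 4988 in old. Its ratio was 1.18, 1.03 and 1.20 in young and 2.02, 2.30 and 2.52 in old, with no overlap. Translational efficiency rose by 1.00 ± 0.18 (edgeR adjusted p = 1.81e-04) and of the 6 lysates only leaving out young 2 ended the call (0.93, adjusted p = 0.064).

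EEF1G and EEF1D, subunits of the exchange factor of elongation factor 1, rose by 0.87 ± 0.18 and 0.73 ± 0.17, and RACK1, a scaffold on the small ribosomal subunit, by 0.69 ± 0.18 (adjusted p = 0.00217, 0.00632 and 0.018). With the GC trend removed EEF1D was not called (0.46, adjusted p = 0.151). EEF1A1 changed by 0.65 (adjusted p = 0.067), PABPC1, the poly(A)-binding protein, by -0.32 (0.437) and PABPC4 by -0.71 (0.062).

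The start sites of 8 of these genes are shown because a C followed by pyrimidines at the first base defines a TOP mRNA. Each window holds 10 bases before and 20 from the RefSeq start on GRCh38.p14, read 5′ to 3′ on the strand of the gene. Capitals mark a C within 10 bases of the start, on either side, with the run of at least 4 pyrimidines behind it. The search was on the transcript strand only. A marked run can thus begin before the annotated start and need not meet the definition. Only the run of EEF2 begins at the first base, and that of TMSB10 lies wholly before it. The windows lie at chr5:150449720-150449749 (RPS14, minus strand), chr6:33272065-33272094 (RPS18, plus), chr19:54200848-54200877 (RPS9, plus), chr11:75399508-75399537 (RPS3, plus), chr19:3985444-3985473 (EEF2, minus), chr5:181243887-181243916 (RACK1, minus), chr11:62573872-62573901 (EEF1G, minus) and chr2:84905646-84905675 (TMSB10, plus). TMSB10 is included as a gene that fell.
RPS14: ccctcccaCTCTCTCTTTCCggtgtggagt
RPS18: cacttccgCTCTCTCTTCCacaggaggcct
RPS9: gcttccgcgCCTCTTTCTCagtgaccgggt
RPS3: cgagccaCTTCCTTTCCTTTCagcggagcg
EEF2: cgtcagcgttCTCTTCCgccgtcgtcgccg
RACK1: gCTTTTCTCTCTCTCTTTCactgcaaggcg
EEF1G: cgggcggcttactttgcggcagcgccgaga
TMSB10: ccgCTCTTTTgtttcttgctgcagcaacgc

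Such a run, which could begin before the start, was found in 25.5% of 27305 promoters of the reference. The share was 27.1% for the 6189 tested genes with a matched promoter. It was found in 29.9% of 107 risen and 32.8% of 58 fallen genes. Among the other TOP mRNAs it was found in 2 of 3 risen genes (66.7%) and in 7 of 8 that were not called (87.5%). EEF1G had no such run. Among ribosomal protein genes it was found in 10 of 11 risen genes (90.9%) and in 40 of 53 that were not called (75.5%). The run therefore marked the ribosomal protein list as a whole, whether or not a member was called.

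Lists on other arms of translation control held at most 1 called gene each, where 2.79% of all genes were called. At that share lists of this size would hold few calls. Of 33 initiation factors, only EIF5, the GTPase-activating protein of the start-site complex, was called; its ratio was 0.641, 0.807 and 0.742 in young and 0.474, 0.510 and 0.381 in old, and it fell by 0.78 ± 0.19 on the log2 scale (adjusted p = 0.0087; 0.126 with the GC trend removed). None of 8 stress mRNAs controlled by upstream reading frames was called by edgeR, or by DESeq2 with every gene given an adjusted p, with 2 at an unadjusted p under 0.05 (18.4% of all genes were) and a median of -0.22, and ATF4, the best known of them, changed by -0.07 (adjusted p = 0.907). Of 18 ATF4 targets, PHGDH, the first enzyme of serine synthesis, rose in translational efficiency by 0.65 ± 0.18 (adjusted p = 0.0313) while its mRNA fell by 2.27. None of 16 aminoacyl-tRNA synthetases, 15 selenoproteins, 7 genes of polyamine synthesis and 28 SR and hnRNP splicing factors was called by edgeR or by DESeq2 run in that way, with 2, 3, 2 and 5 of them at an unadjusted p under 0.05. Without the shallow lysates edgeR called 3 of the splicing factors up and 1 selenoprotein down. QARS and RARS2 also code for aminoacyl-tRNA synthetases but are not on that list. Both were called, at 0.62 and -0.92 (edgeR adjusted p = 0.0467 and 0.0278). Of 49 tested zinc finger genes named ZNF, ZNF579 alone was called (1.22 ± 0.36, edgeR adjusted p = 0.0399), with overlapping ratios. Of the 26 lists 17 held at least 1 called gene; 23 did without the shallow lysates, 14 with the GC trend removed, and with 1 lysate left out 6 (without young 2), 7 (without young 3), 8 (without old 3), 10 (without old 1), 17 (without old 2) and 22 (without young 1).

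**Figure D5:**
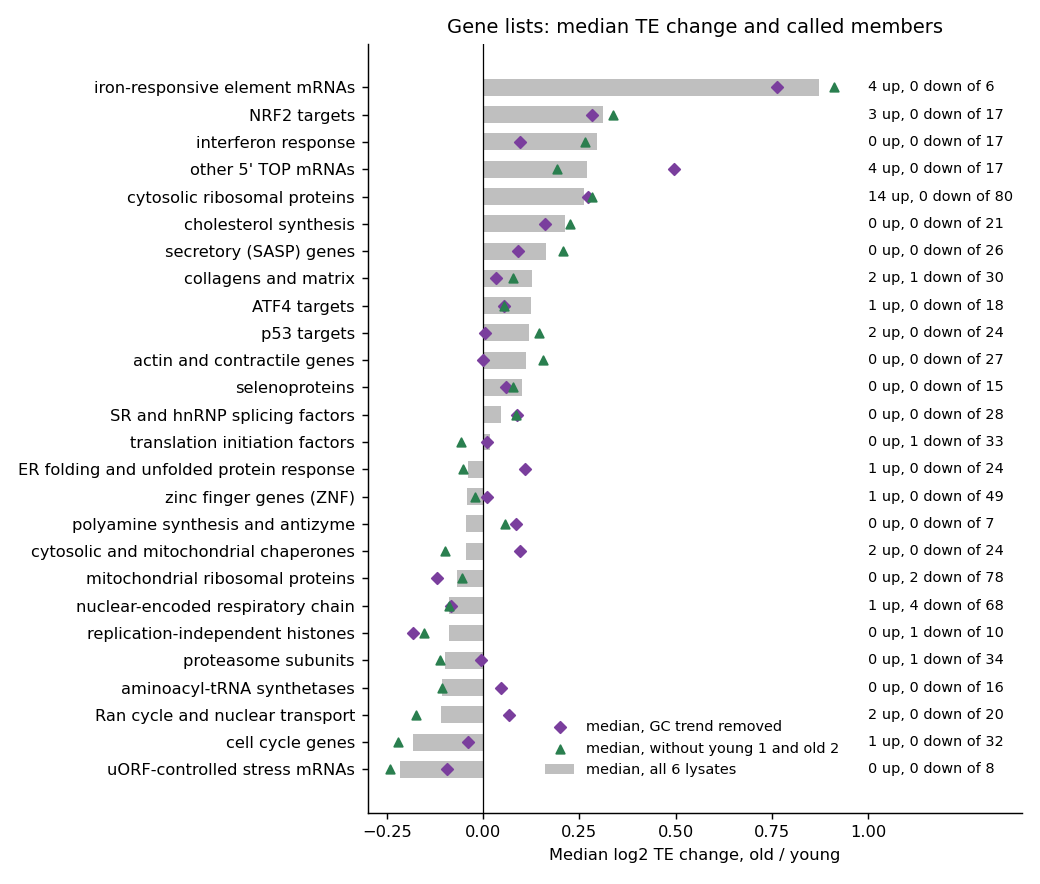
Median log2 change in translational efficiency (old over young) of 26 gene lists, with all 6 lysates (bars), with the GC trend removed (diamonds) and without young 1 and old 2 (triangles); the text at the right gives called members of tested members. The iron-responsive element list has the highest median in all of these fits and the ribosomal protein list has the most called members, 14 of 80.

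The marker programmes of senescence held many calls in mRNA and few in translational efficiency, for which 2.79% of all genes were called. Of 26 tested secretory (SASP) genes 19 rose in mRNA, against 32.4% of all genes, with a median of 0.76, and 16 rose in footprints, against 21.7%. None of them was called for translational efficiency by edgeR or by DESeq2 run in that way, with 4 at an unadjusted p under 0.05 (18.4% of all genes were), but 3 rose without the shallow lysates. Of 32 cell cycle genes 30 fell in mRNA and 30 in footprints, against 32.6% and 19.6% of all genes, with medians of -1.72 and -1.84. CCND2, cyclin D2, was the only one of these called for translational efficiency (0.90 ± 0.25, adjusted p = 0.0322), on top of a rise of 3.38 in mRNA, and its ratios overlapped. None of 21 cholesterol synthesis, 27 actin and contractile or 17 interferon response genes was called for translational efficiency by edgeR or by DESeq2 run in that way, with 4, 3 and 7 at an unadjusted p under 0.05, although 18, 14 and 12 of them rose in mRNA. Without the shallow lysates edgeR called 1, 2 and 1 of them, all up. The 4 programmes without a call had median translational efficiency changes of 0.11 to 0.30. With the GC trend removed the medians were 0.09 for secretory, 0.16 for cholesterol synthesis, -0.001 for actin and contractile and 0.09 for interferon response genes.

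Genes of growth arrest gave some rises. GADD45A, a p53 target of the DNA damage response, had a ratio of 0.580, 0.821 and 0.752 in young and 1.45, 1.96 and 1.68 in old. It rose by 1.04 ± 0.20 (edgeR adjusted p = 3.74e-04), by 0.83 with the GC trend removed, and was not called without young 3 (adjusted p = 0.093). PHLDA3, a p53-induced repressor of AKT, rose by 0.94 ± 0.22 (adjusted p = 0.00737, and 0.132 with the GC trend removed). The other 22 of 24 tested p53 targets were not called, where 1.83% of all genes rose. CDKN2A, which codes for p16 and p14ARF, rose by 0.95 ± 0.21 (adjusted p = 0.00518), with a ratio of 2.04, 0.982 and 1.09 in young and 2.37, 1.11 and 1.82 in old; the groups overlapped, and with the GC trend removed the adjusted p was 0.0779. CDKN1A changed by -0.38 (adjusted p = 0.28).

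Among 30 collagen and matrix genes, THBS2 and SERPINH1 rose and COL4A1 fell, where 1.83% of all genes rose and 0.966% fell. THBS2, a thrombospondin of the matrix, had mRNA of 146, 153 and 171 CPM in young and 58.7, 47.7 and 48.2 in old, with footprints of 175, 215 and 247 CPM in young and 136, 177 and 187 in old. Its ratio rose from 1.26, 1.41 and 1.44 in young to 2.32, 3.89 and 3.90 in old, a change of 1.04 ± 0.19 (edgeR adjusted p = 2.02e-04) that was lost as a call without old 3 (0.70, adjusted p = 0.142). SERPINH1, the collagen chaperone HSP47, rose by 0.68 ± 0.17 (adjusted p = 0.0155; 0.151 with the GC trend removed). COL4A1, a basement membrane collagen, fell by 0.73 ± 0.19 on the log2 scale (adjusted p = 0.0184), with more mRNA in each old library and overlapping footprints. Without the shallow lysates the COL4A1 change was -0.44 (adjusted p = 0.0552).

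HSPA1A and HSPA1B, the inducible HSP70 genes, rose by 0.86 ± 0.20 and 0.84 ± 0.20 (adjusted p = 0.00686 and 0.00987). Their coding sequences are nearly the same, so they count as 1 observation. Neither was called with the GC trend removed. They were the only called genes of the 24 on the chaperone list, where 2.79% of all genes were called. HSPB8, HSPA2 and CDC37 are not on the list and were called too, HSPB8 at 1.39 (edgeR adjusted p = 0.00696). XBP1, a transcription factor of the unfolded protein response, was the only one of 24 genes of endoplasmic reticulum folding (0.99 ± 0.23, adjusted p = 0.00632); young 1, with a ratio of 2.03, lay above all old lysates (0.978, 0.699 and 1.64).

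TMSB10 showed the most stable fall. It codes for thymosin β10, a small protein that binds actin monomers. Its mRNA was at 2380.5, 2257 and 2215 CPM in young and 2279, 2371 and 1784 in old, while its footprints were at 1891, 2081 and 2021 CPM in young and 939, 796 and 415 in old. The ratio was 0.798, 0.922 and 0.912 in young and 0.412, 0.339 and 0.233 in old, with no overlap. Translational efficiency fell by 1.46 ± 0.19 on the log2 scale (edgeR adjusted p = 1.06e-07), by 1.47 with the GC trend removed, by 1.50 without the shallow lysates, and by 1.26 to 1.73 with any 1 lysate left out. Its paralog TMSB4X had a ratio of 0.448, 0.541 and 0.451 in young and 0.321, 0.255 and 0.242 in old and fell by 0.80 ± 0.19 (adjusted p = 0.00822; 0.0524 with the GC trend removed).

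Called members of the mitochondrial lists mostly fell. TOMM5, a small subunit of the outer membrane translocase, is on none of these lists. Its ratio was 1.18, 0.472 and 0.466 in young and 0.187, 0.0918 and 0.113 in old. It fell by 1.61 ± 0.34 on the log2 scale (edgeR adjusted p = 0.00217) and stayed called with any 1 lysate left out. It had 5, 27, 68, 26, 0 and 4 footprint reads in young 1 to old 3. SLC25A6, a mitochondrial carrier that is also on none of them, rose by 1.25 (edgeR adjusted p = 6.24e-07). Among 68 nuclear-encoded subunits of the respiratory chain, 4 fell (COX7B, NDUFB3, ATP5PF and ATP5F1E) and 1 rose (NDUFA6), against 0.966% and 1.83% of all genes. With the GC trend removed 1 fell and 1 rose. The median change was -0.09, and 25 changes were positive, against 3834 of 7451 over all genes. Relative to the median of all genes, the median log2 ratio of the list was 0.68, 0.64 and 0.68 in young 1, 2 and 3. It was 0.61, 0.25 and 0.57 in old 1, 2 and 3. The groups did not overlap, but young 2 (0.64) and old 1 (0.61) lay close. Among the 26 lists only this one and the iron-responsive element list did not overlap. COX7B, a subunit of cytochrome c oxidase, fell by 0.98 ± 0.22 (adjusted p = 0.00612; 0.0472 with the GC trend removed), with ratios of 2.80, 1.93 and 1.44 in young and 0.965, 0.514 and 0.707 in old.

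Of 78 mitochondrial ribosomal protein genes MRPL33 and MRPL13 fell, by 1.26 ± 0.29 and 1.13 ± 0.25 on the log2 scale (edgeR adjusted p = 0.00596 and 0.00462). None rose, where 0.966% of all genes fell and 1.83% rose, and 37 of the 78 changes were positive. MRPL33 had 1 footprint read in young 1 and its ratios overlapped. Of the 34 genes on the proteasome list only PSMD12 was called, falling by 0.73 ± 0.19 (adjusted p = 0.0232, and 0.338 with the GC trend removed). ADRM1 and PSME4, proteasome genes that are not on the list, were called too. The mitochondrial lists had medians of -0.09 and -0.07, against 0.01 over all genes.

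AHNAK, MACF1 and PLEC lost footprints and were singled out after their values were seen. AHNAK, a giant scaffold protein under the plasma membrane, had a ratio of 2.09, 2.34 and 2.34 in young and 1.10, 1.52 and 1.19 in old. It fell by 0.94 ± 0.17 on the log2 scale (edgeR adjusted p = 1.48e-04; -0.92 with the GC trend removed, -1.06 without the shallow lysates). MACF1 and PLEC, linkers of microtubules, actin and intermediate filaments, fell by 0.91 ± 0.17 and 0.59 ± 0.17 (adjusted p = 3.22e-04 and 0.0392), with no overlap. mRNA changed by -0.01 for AHNAK and -0.04 for PLEC (adjusted p = 0.926 and 0.833) and rose by 0.33 for MACF1 (adjusted p = 0.00262). These 3 genes were called both with the GC trend removed and without the shallow lysates.

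For 12 fallen genes mRNA rose and footprints fell. SRFBP1, a cofactor of serum response factor, had 53.7, 56.2 and 48.5 mRNA CPM in young and 98.3, 98.3 and 90.5 in old, and 35, 26.9 and 34.2 footprint CPM in young and 14.1, 35.4 and 13.6 in old. Its ratio was 0.814, 0.492 and 0.712 in young and 0.147, 0.450 and 0.161 in old, with no overlap, although the value of old 2 rests on 2 reads and lay just under young 2. It fell by 2.03 ± 0.34 on the log2 scale (edgeR adjusted p = 6.16e-05), and was not called without young 3 or old 1 (adjusted p = 0.099 and 0.075). XIAP, an inhibitor of caspases, fell by 1.60 ± 0.40 (adjusted p = 0.0123), from 3, 18 and 55 footprint reads in young and 20, 1 and 2 in old.

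H2BFS and LOC102724334 had the largest falls, of 4.06 ± 0.42 and 4.49 ± 0.46 on the log2 scale (edgeR adjusted p = 2.15e-11 and 1.92e-11). Both are copies of histone H2B, and their footprint counts were identical, at 4, 21 and 58 reads in young and 20, 0 and 1 in old, so that they count as 1 observation. Their symbols do not begin with HIST. They therefore stayed in the fit, while 74 symbols of replication-dependent histones, whose mRNAs mostly lack a poly(A) tail and are not captured evenly by mRNA-Seq, were left out. Among 10 replication-independent histone genes, H3F3A, which codes for histone H3.3, was the only one called (-0.65 ± 0.19, adjusted p = 0.0361). Over all genes 2.79% were called.

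For 22 risen genes mRNA fell and footprints rose, among them FTL, FTH1, RANBP1, OSGIN1, RPS14 and XBP1. SLC25A6, an ADP/ATP carrier of mitochondria, CIRBP, a cold-inducible RNA-binding protein, and TAGLN3 also belonged to these. SLC25A6 had a ratio of 0.887, 0.579 and 0.580 in young and 1.33, 1.06 and 1.80 in old, rose by 1.25 ± 0.18 (edgeR adjusted p = 6.24e-07), and rose by 1.02 with the GC trend removed. CIRBP had a ratio of 0.205, 0.825 and 0.551 in young and 1.52, 0.872 and 1.40 in old, and rose by 1.18 ± 0.20 (adjusted p = 9.22e-05). SLC25A6 and CIRBP were chosen after their values were seen.

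TAGLN3 had the largest rise, and it rested on very little mRNA. This transgelin had 1.06, 1.40 and 1.63 mRNA CPM in young and 0.227, 0 and 0.0979 in old, against 35, 43.4 and 43.9 footprint CPM in young and 103, 35.4 and 123 in old. Footprints thus exceeded mRNA in every lysate, and the fitted change of 4.58 ± 0.65 (edgeR adjusted p = 6.99e-07) depends on how values near 0 are treated. How reads shared with the close homologue TAGLN2 were placed is not known.

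CYP1B1, a cytochrome P450 of steroid and xenobiotic metabolism, had 65.3, 60.0 and 68.6 mRNA CPM in young and 1.70, 1.41 and 1.96 in old. Its footprints were at 123, 68.8 and 70.3 CPM in young and 5.37, 88.4 and 9.74 in old. Old 2, with 5 reads, was at the level of the young libraries. Translational efficiency rose by 2.46 ± 0.59 (edgeR adjusted p = 0.0094), and without the shallow lysates the change was 1.80 (adjusted p = 0.055). CYP1B1 is among 14 genes whose mRNA was high in young and low in old cells, and their footprints summed to 403 CPM in old 2, 144 in old 1 and 310.2 in old 3, against 1555 to 3341 in young.

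RIT1, a small GTPase of the Ras family, rose by 1.58 ± 0.33 (edgeR adjusted p = 0.00236), with a ratio of 0.253, 0.303 and 0.514 in young and 1.17, 1.54 and 1.47 in old. It had 0, 7 and 31 footprint reads in young and 78, 3 and 31 in old, and was not called without young 2 (1.36, adjusted p = 0.064). NAA20, the catalytic subunit of an N-terminal acetyltransferase, was chosen after its values were seen. It had a ratio of 0.751, 1.66 and 1.30 in young and 2.29, 2.87 and 5.13 in old, and rose by 1.24 ± 0.22 (adjusted p = 1.81e-04) and by 1.39 with the GC trend removed. Its coding sequence has a GC content of 45.6%, below the median of all genes. MAMDC2, a secreted proteoglycan chosen in the same way, had 1, 6 and 18 footprint reads in young and 94, 1 and 35 in old. Most of its Ribo-Seq reads lay in the 3′ UTR, with 14, 266.5 and 595.5 in young and 430, 9 and 120 in old, so that its CDS value covers a small part of them. In the CDS it rose by 2.50 ± 0.33 (adjusted p = 1.06e-07), with a ratio of 0.133, 0.0518 and 0.0786 in young and 0.374, 0.131 and 0.452 in old, where old 2 lay just under young 1.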

How the data were processed

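Ribo-Seq and mRNA-Seq of 6 lysates (3 young, 3 old) were analysed. The authors deposited estimated counts of reads per gene symbol, not scaled to depth, in separate columns for the 5′ UTR, CDS, 3′ UTR, non-coding RNA and other classes. The submitters' processing notes name STAR 2.6.0c, featureCounts, DESeq2, deepTools and GRCh37, without saying which was used for these tables. Between 16.2% and 23.2% of non-zero values in the 12 libraries were not whole, and counts were rounded. CDS reads were used for Ribo-Seq (54421 to 1718521 a library) and the sum of 5′ UTR, CDS and 3′ UTR reads for mRNA-Seq (7902427 to 14144455), as the study's methods describe. Symbols beginning HIST (74 of 38716) were left out.

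Translational efficiency was the interaction of assay and condition in edgeR 4.0.16 (R 4.3.3; glmQLFit and glmQLFTest, TMM scaling within each assay, filterByExpr in both assays), with the lysate as a block. Each assay was also tested alone. Tests were two-sided, with Benjamini-Hochberg adjustment over all genes tested and a threshold of 0.05. The block rests on the methods, by which 1 lysate gave the Ribo-Seq and mRNA-Seq library of each pair; their deviations correlated with r from -0.067 to 0.096. The p-values measure the spread between cultures of one line. Per-lysate ratios were taken from scaled CPM with a small prior count, and were not compared between genes, since CDS and transcript lengths differ.

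Named genes were the 15 largest rises and falls among called genes with at least 5 CPM and no overlap between groups, every called member of 26 gene lists, the 2 most abundant members of lists with fewer than 2 calls, and RANBP1, OSGIN1 and RIT1, apart from a few genes that are not reported here but stay in every fit and count; others are said to be chosen after their values were seen, as were CDKN2A and TMSB4X. The members and lists were chosen with earlier results of these data known. The study's tool anota2seq was not used here; an analysis of partial variance took its place as an alternative, beside DESeq2 1.42.0, other scalings, filters, blocks and thresholds, thinned counts and leaving out lysates. The fits with a GC or length trend (a spline with 4 degrees of freedom per library) with TMM over both assays together and by DESeq2 without independent filtering were chosen after seeing the data. The pipeline was tested on simulated data. Genes of near-identical sequence, such as ribosomal protein, ferritin, thymosin and HSP70 genes and their pseudogenes, are uncertain as single genes. Sequences came from the GRCh37 reference and, for start sites, from RefSeq on GRCh38.p14.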

Additional observations from a re-analysis of the deposited data

How the results depend on the processing

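The count of 208 genes called for translational efficiency moved with most choices. Without the lysate block it was 461 (205 shared with the reported calls), and with a replicate block by the shared number of young and old, added to the lysate, it was 56; same-numbered libraries share only a number, with correlations of deviations of 0.028 to 0.051 in Ribo-Seq and -0.202 to 0.241 in mRNA-Seq. It was 111 with no filter, 34 by DESeq2 (which by its independent filter gave only 373 of 7451 genes an adjusted p; 19 without that filter, added after seeing the data), 36 with all 18 libraries in the fit, 704 at an adjusted p under 0.15, 383 without the shallow lysates, 109 with the GC trend and 96 with the GC and length trends removed. With 1 lysate left out it ran from 27 (without young 2) to 328 (without young 1), and was 31 without young 3, 43 without old 1 and 66 without old 3. Risen genes were 65.4% of calls, but 55.6% with RLE scaling, 49.6% with TMM over both assays together, 43.3% without young 1 and 37.9% without old 3. No gene called for translational efficiency was called in the opposite direction elsewhere.

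The partial variance fit called 0 genes, with 470 at an unadjusted p under 0.05, on 2 residual degrees of freedom. In it 20 named genes had the opposite sign, at adjusted p of 0.776 or more: CYP1B1 -35.70, PARVB -10.25, H2BFS 6.75, MRPL13 0.29, RBBP6 3.91, RPL4 -0.52, RPL7A -0.63, RPL10 -0.37, RPL28 -0.018, RPL36A -1.61, RPS3 -0.22, RPS4X -0.58, RPS9 -1.26, RPS14 -0.24, RPS18 -1.06, RACK1 -1.36, PHGDH -3.66, RCC1 -28.27, COL4A1 0.058 and THBS2 -0.86. The cause was not tested. Of 68 named genes called, 36 were called with the GC trend removed, 65 without the shallow lysates, 29 with the shared-number block, 16 of the 17 given an adjusted p by DESeq2, and 13 by DESeq2 without its filter; TMSB10 was called in 21 of 22 alternatives and FTL in 20.

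For Ribo-Seq alone, 3080 calls became 1487 with the shared-number block, 1635 with a mean of at least 50 reads, 671 by DESeq2 (6159 genes with an adjusted p), 1625 with all libraries and 1674 (without old 1) to 3519 (without young 1) with 1 lysate left out, 1760 without young 3. For mRNA-Seq, 8326 calls became 3383 in thinned libraries (1 in the opposite direction), 7171 with CDS reads only (16 in the opposite direction), 4138 with an absolute log2 change over 0.6, and 7559 to 8182 with 1 lysate left out. Depth limits Ribo-Seq: young 1 and old 2 had at least 10 CDS reads in 1135 and 1121 genes, against 6643 to 9608 in the others.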
